A study of Mus musculus with 20 samples.

Results

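Fc receptors for IgG and their shared signalling chain were examined in mouse bone marrow neutrophils through 5 genes, chosen by symbol from the 24421 genes of each count table: Fcgr1, Fcgr2b, Fcgr3, Fcgr4 and Fcer1g. All 5 passed the filter on low counts, which kept 14030 genes. Bulk poly(A) RNA-seq libraries were made from bone marrow neutrophils that had been isolated by magnetic negative selection, in 4 groups of 5 mice. The study asked how loss of the circadian clock gene Bmal1 in myeloid cells alters features of imiquimod-induced lupus.

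All mice of the study were female. IMQ-treated mice were 8 to 10 weeks old at the start, and the age of the untreated mice is not given in the sources used here. The groups were untreated WT, untreated Bmal1 Mye-/-, WT + IMQ and Bmal1 Mye-/- + IMQ. WT mice were C57BL/6J, were purchased, and were therefore not littermates of the mutants. Bmal1 Mye-/- mice carry floxed Bmal1, listed in the files under its older symbol Arntl, and LysMCre, a Cre recombinase inserted at Lyz2 and expressed in granulocytes, monocytes and macrophages. IMQ is imiquimod, a Toll-like receptor agonist, applied as a 5% cream to the ears 3 times per week for 6 weeks. Cre was present only in the mutants, so loss of Bmal1 and presence of Cre at Lyz2 cannot be told apart. The mutants were bred separately, from a floxed and a Cre strain. Other genetic differences from the purchased WT mice cannot be told apart from loss of Bmal1 either.

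Fc receptors bind the constant part of antibodies and let innate cells respond to immune complexes. Fcgr1 encodes the high-affinity IgG receptor, typical of monocytes and macrophages, while Fcgr3 and Fcgr4 encode activating receptors of lower affinity that mouse neutrophils carry. These 3 ligand-binding chains signal through Fcer1g, the common gamma chain, whose cytoplasmic tail holds an ITAM, a pair of tyrosines that Src family kinases phosphorylate and that then bind the kinase Syk. Fcgr2b encodes the inhibitory IgG receptor of B cells and myeloid cells, whose own tail holds an ITIM, a single-tyrosine motif that recruits phosphatases such as SHIP1, encoded by Inpp5d.

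The coding bases of both motifs are given because they separate the activating from the inhibitory members. They were read from the GENCODE transcripts numbered 201 of Fcer1g and Fcgr2b, with the tyrosine codons in capitals. The ITAM spans residues 65 to 79 of the 86 residues of Fcer1g, and the ITIM spans residues 317 to 322 of the 340 of Fcgr2b.
Fcer1g ITAM: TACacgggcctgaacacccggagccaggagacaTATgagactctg
Fcgr2b ITIM: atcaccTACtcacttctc

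On mm10, Fcgr2b (ENSMUSG00000026656, chr1:170958617-170976547, minus strand), Fcgr4 (ENSMUSG00000059089, chr1:171018920-171029761, plus strand), Fcgr3 (ENSMUSG00000059498, chr1:171051174-171064935, minus strand) and Fcer1g (ENSMUSG00000058715, chr1:171229572-171234365, minus strand) lie within 276 kb of each other. Fcgr1 (ENSMUSG00000015947, chr3:96282909-96293969, minus strand) lies alone on chromosome 3. Fcgr2b and Fcgr3 are close paralogs: 166 windows of 50 bases, 2.92% of those of Fcgr2b and 9.58% of those of Fcgr3, are identical between their annotated transcripts. Another 107 windows of Fcgr2b are shared with the overlapping antisense gene Gm38204. Reads from these stretches could have been assigned to either gene or dropped, so the counts of Fcgr2b and Fcgr3 carry that uncertainty, whereas Fcgr1, Fcgr4 and Fcer1g shared 0 such windows with any annotated transcript.

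Sequence directly upstream of the RefSeq start sites is shown for Fcgr1, which was higher under IMQ in the mutants, and for Fcgr3, Fcgr4 and Fcer1g, whose levels followed each other across libraries. The sequences are from the GRCm38.p6 RefSeq table, 250 bases each, 5′ to 3′ on the strand of the gene: chr3:96293970-96294219 for Fcgr1 (minus strand), chr1:171059404-171059653 for Fcgr3 (minus strand), chr1:171018676-171018925 for Fcgr4 (plus strand) and chr1:171234350-171234599 for Fcer1g (minus strand). In the GENCODE annotation, 0, 27, 6 and 16 of their bases, in the same order, fall in exons of the gene. Fcgr2b is not shown because 187 of its 250 upstream bases fall in annotated exons of that gene. The motif search below therefore covered mostly exon in Fcgr2b. Capitals mark matches to the interferon gamma activated site (GAS, TTCNNNGAA) or to the core bound by PU.1, the myeloid transcription factor (GAGGAA), on either strand.
Fcgr1: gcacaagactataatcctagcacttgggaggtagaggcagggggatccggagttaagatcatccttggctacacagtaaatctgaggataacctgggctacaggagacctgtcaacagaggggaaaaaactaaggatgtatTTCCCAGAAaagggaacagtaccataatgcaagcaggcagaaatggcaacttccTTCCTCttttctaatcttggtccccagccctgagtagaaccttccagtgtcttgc
Fcgr3: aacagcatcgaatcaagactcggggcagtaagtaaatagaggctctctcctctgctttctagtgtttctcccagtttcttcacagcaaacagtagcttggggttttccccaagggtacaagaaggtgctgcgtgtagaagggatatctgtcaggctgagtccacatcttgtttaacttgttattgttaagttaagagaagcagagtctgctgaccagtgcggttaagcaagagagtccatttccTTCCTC
Fcgr4: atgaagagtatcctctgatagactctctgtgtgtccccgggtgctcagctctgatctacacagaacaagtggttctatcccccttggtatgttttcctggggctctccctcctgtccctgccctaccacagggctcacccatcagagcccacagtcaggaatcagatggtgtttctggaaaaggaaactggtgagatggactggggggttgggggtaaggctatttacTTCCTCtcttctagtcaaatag
Fcer1g: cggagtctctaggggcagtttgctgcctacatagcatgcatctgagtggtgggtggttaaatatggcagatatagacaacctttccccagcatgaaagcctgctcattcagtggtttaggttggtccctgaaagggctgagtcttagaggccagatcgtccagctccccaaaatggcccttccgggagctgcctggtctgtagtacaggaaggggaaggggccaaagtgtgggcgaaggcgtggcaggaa

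Of the 5 genes, only Fcgr1 held a GAS match, which 8.30% of 32851 promoter windows also held, each reaching from 250 bases before to 50 bases after the start. The PU.1 core was present in Fcgr1, Fcgr3 and Fcgr4 and in 28.3% of all windows. A CEBP match (TTGCNNAA), named for the granulocyte factors of that family, was present in Fcgr3 and in 10.8% of windows. The E-box CACGTG, the letters that BMAL1 dimers bind, was present in 0 of the 5 and in 7.15% of windows. Both strands were searched, and no match in the 5 genes overlapped another. These matches describe letters in the windows and not binding.

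The libraries held between 30782166 and 92613500 gene-assigned counts each (median 66094896). Arntl was lower in the mutants on average but overlapped, at 0.895 to 1.71 CPM in untreated WT, 0.468 to 1.10 in untreated Bmal1 Mye-/-, 0.562 to 1.87 in WT + IMQ and 0.337 to 1.52 in Bmal1 Mye-/- + IMQ, so these counts over the whole gene do not check the deletion of the floxed part. Lyz2, the site of Cre, was at 58.8 to 177 CPM in the 10 mutant libraries and 2465 to 12033 in the 10 WT libraries. The 7 neutrophil markers analysed summed to 67232 to 137083 CPM. The lowest sum was that of replicate 1 of Bmal1 Mye-/- + IMQ, which also had the highest sum of 10 monocyte markers, 4112 CPM against 762 to 1971 in the other 19 libraries. Pax5 of B cells and Ncr1 and Klrb1c of NK cells stayed at or below 0.528 CPM in every library. On the first principal component, replicate 5 of WT + IMQ and replicate 2 of Bmal1 Mye-/- + IMQ lay at -37.1 and -10.7, within the range of the untreated libraries (-57.0 to -7.63), and the other 8 IMQ libraries lay above it.

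The 5 genes differed widely in level. CPM, the counts of a gene relative to the size of its library, were scaled by edgeR's TMM factors. Per kilobase of merged exon, mean levels in untreated WT mice were 643 CPM per kb for Fcer1g, 315 for Fcgr3, 96.5 for Fcgr4, 8.23 for Fcgr2b and 0.762 for Fcgr1. The signalling chain and the low-affinity activating receptors were thus listed above the inhibitory receptor, and the high-affinity receptor was lowest. Within every group, the ranges of neighbours in this order did not overlap. With the length of transcript 201 in place of merged exons, the order was the same, and Fcgr2b had 13.4 CPM per kb. That transcript, of 3544 bases, is the longest coding transcript of Fcgr2b, and the shortest has 1084. The gap between Fcgr2b and the activating receptors therefore depends on the length chosen.

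Under IMQ, Fcgr1 and Fcgr2b were higher in the Bmal1 Mye-/- libraries, and the other 3 genes had fitted values below 0 that did not pass the test. The call of Fcgr1 was lost without replicate 1 of the treated mutants (edgeR adjusted p = 0.0652). With all libraries, 2 of 5 genes passed an adjusted p of 0.05 in this comparison, both higher, against 23.5% of all tested genes called and 14.4% called higher. Ranges of treated and untreated libraries did not overlap for 2 of 5 genes, Fcgr2b and Fcgr3, against 20.1% of tested genes. In WT mice, 0 of 5 genes passed, against 3.95% of tested genes, and ranges did not overlap for 0 of 5, against 6.43%. In bulk libraries, a change in the share of cells of a type and a change in RNA per cell cannot be told apart.

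**Figure D1:**
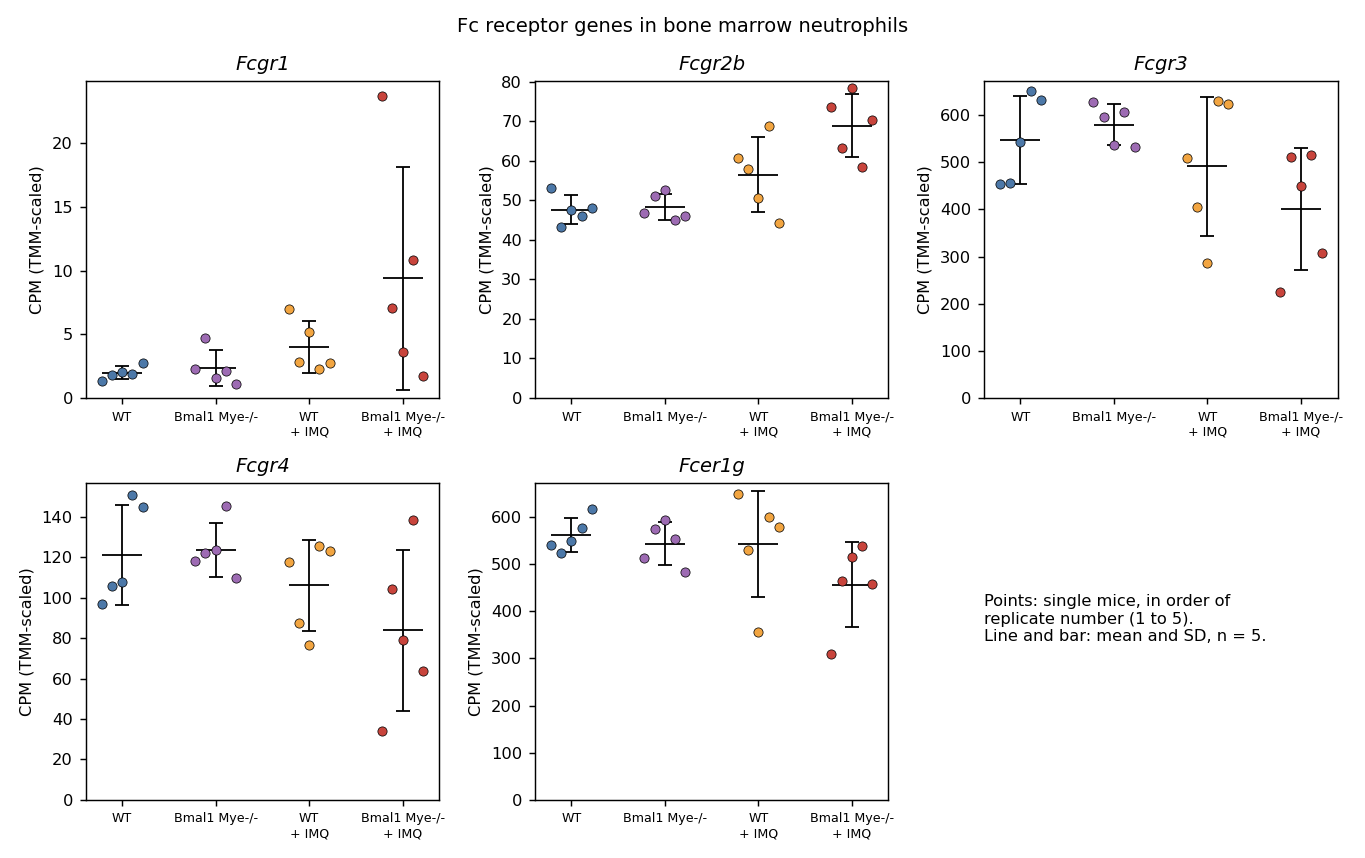
CPM of each of the 5 genes by group, with 1 point per library in order of replicate number and a line and bar for the mean and SD (n = 5). Fcgr1 reached 23.7 CPM in replicate 1 of Bmal1 Mye-/- + IMQ, all 5 Fcgr2b values of that group lay above those of untreated Bmal1 Mye-/-, and all 5 Fcgr3 values lay below.

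Fcgr1, the high-affinity receptor, was the least abundant member per length in every group. Its levels in replicates 1 to 5 were 1.35, 1.81, 2.03, 1.90 and 2.77 CPM in untreated WT and 2.29, 4.69, 1.58, 2.10 and 1.06 CPM in untreated Bmal1 Mye-/-. They were 6.97, 2.85, 5.21, 2.25 and 2.75 CPM in WT + IMQ and 23.7, 7.08, 3.60, 10.9 and 1.70 CPM in Bmal1 Mye-/- + IMQ. The treated mutants were the most spread group, from below most untreated libraries to several times above all of them, and the ranges overlapped in every comparison.

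In Bmal1 Mye-/- mice the mean of Fcgr1 went from 2.35 ± 1.40 to 9.40 ± 8.75 CPM (SD, n = 5). The log2 fold change was 1.99 (SE 0.55, edgeR adjusted p = 0.0171). The call rests on a single mouse: without replicate 1 of Bmal1 Mye-/- + IMQ the log2 fold change was 1.31 with an edgeR adjusted p of 0.0652. In WT mice the mean went from 1.97 ± 0.516 to 4.01 ± 2.01 CPM (SD, n = 5), a log2 fold change of 1.02 (SE 0.54, edgeR adjusted p = 0.274).

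Within each IMQ group, the libraries highest and lowest in Fcgr1 were also highest and lowest in summed monocyte markers. The order of the libraries between them differed. The 10 monocyte genes summed to 4112, 1971, 949, 1483 and 762 CPM in replicates 1 to 5 of Bmal1 Mye-/- + IMQ, and 926 to 1259 CPM in untreated Bmal1 Mye-/-. They summed to 1771, 1235, 1276, 1157 and 1326 CPM in WT + IMQ and 959 to 1149 CPM in untreated WT. Ccr2, the chemokine receptor of inflammatory monocytes, was at 416 CPM in replicate 1 of Bmal1 Mye-/- + IMQ, at 106 in its replicate 2 and at 16.8 to 46.6 elsewhere. In replicate 1 of WT + IMQ, Ccr2 was the lowest of that group at 27.1 CPM. Ly6c2, another of the 10 genes, alone made 1351 CPM of the sum there. Csf1r, the receptor for macrophage colony-stimulating factor, was at 217, 143, 36.0, 88.7 and 12.3 CPM in replicates 1 to 5 of Bmal1 Mye-/- + IMQ. It was highest and lowest there in the same libraries as Fcgr1 and the monocyte sum. It did not rise under IMQ: untreated mutants had 194 to 223 CPM, and the WT + IMQ library highest in Fcgr1 had 55.2 CPM. Of the 10 monocyte genes, 6 were called under IMQ in the mutants (60%, against 23.5% of all tested genes), all higher. In WT 0 were called, against 3.95% of all tested genes. The library highest in Fcgr1 was thus highest in monocyte markers, and the lowest of that group was lowest in both. The part of these cells in the Fcgr1 result was not tested.

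Interferon-stimulated genes gave another order. Their 12 genes summed to 5471 CPM in replicate 4 of Bmal1 Mye-/- + IMQ and 4967 CPM in replicate 1 of WT + IMQ, against 354 to 1436 CPM in the other 18 libraries. The former had 10.9 CPM of Fcgr1, the second highest of Bmal1 Mye-/- + IMQ, and the latter had 6.97 CPM, the highest of WT + IMQ. The library with the most Fcgr1, at 23.7 CPM, had the smallest interferon-stimulated sum, 354 CPM.

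**Figure D2:**
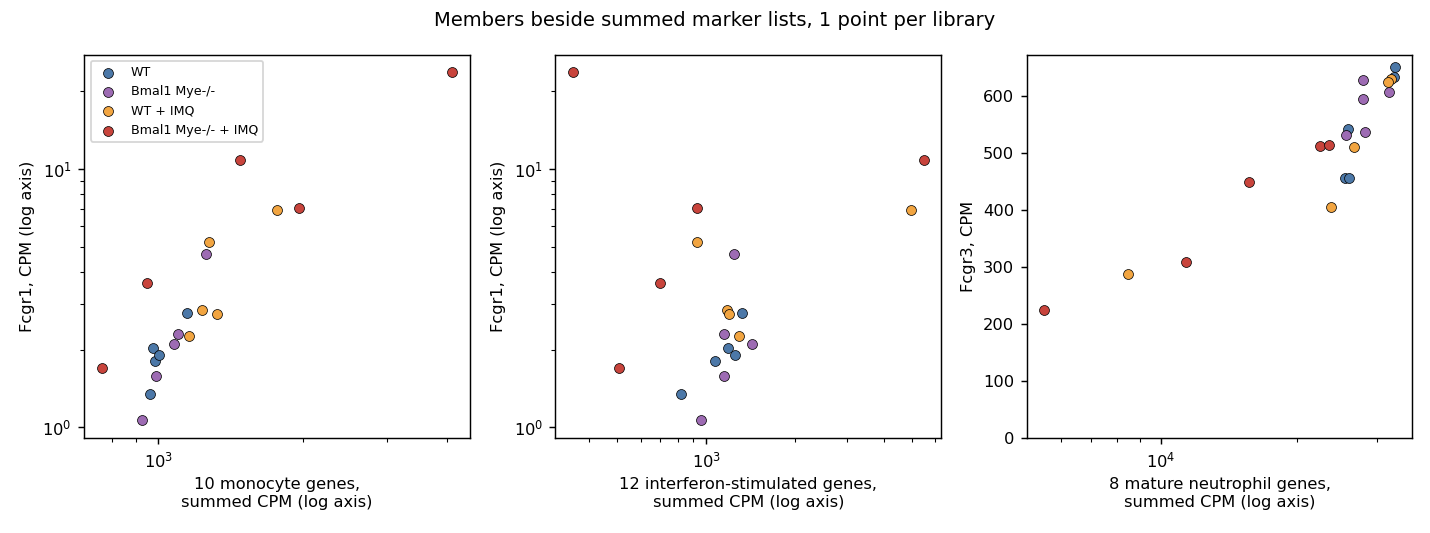
Fcgr1 against the summed CPM of 10 monocyte genes and of 12 interferon-stimulated genes, and Fcgr3 against that of 8 mature neutrophil genes, with 1 point per library coloured by group and log axes where stated. The library with 23.7 CPM of Fcgr1 had the largest monocyte sum, 4112 CPM, and the smallest interferon-stimulated sum, 354 CPM, and the 4 libraries lowest in mature neutrophil genes had 225 to 449 CPM of Fcgr3.

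Fcgr2b, the inhibitory receptor, varied least of the 5 between mice, with its highest library 1.82 times its lowest. Its levels were 53.1, 43.1, 47.5, 46.1 and 48.2 CPM in untreated WT and 46.8, 51.2, 52.6, 45.1 and 46.0 CPM in untreated Bmal1 Mye-/-. They were 60.7, 57.8, 50.6, 68.8 and 44.2 CPM in WT + IMQ and 73.7, 63.3, 78.4, 58.5 and 70.4 CPM in Bmal1 Mye-/- + IMQ. Every treated mutant lay above every untreated mutant, and 3 of 5 treated WT mice lay above every untreated WT mouse.

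In Bmal1 Mye-/- mice the mean of Fcgr2b rose from 48.3 ± 3.34 to 68.8 ± 7.99 CPM (SD, n = 5), 1.42-fold. The log2 fold change was 0.51 (SE 0.11, edgeR adjusted p = 0.00697), and with each library left out it was 0.47 to 0.59 with edgeR adjusted p of 0.00413 to 0.0255. In WT mice it was 0.24 (SE 0.11, edgeR adjusted p = 0.190). B cells also carry Fcgr2b: the 10 B-lineage markers summed to 6.63 to 26.8 CPM in untreated Bmal1 Mye-/- and 5.31 to 8.59 CPM in Bmal1 Mye-/- + IMQ. Without replicate 1 of Bmal1 Mye-/- + IMQ, the library richest in monocyte markers, the log2 fold change of Fcgr2b in the mutants was 0.50 (edgeR adjusted p = 0.0138). Replicate 2, kept in that fit, had a monocyte sum of 1971 CPM, against 926 to 1259 CPM in untreated Bmal1 Mye-/-. The 6 eosinophil markers summed to 83.4, 110, 191, 37.6 and 167 CPM in replicates 1 to 5 of Bmal1 Mye-/- + IMQ. Untreated Bmal1 Mye-/- had 41.3 to 123 CPM. For 8 markers of immature granulocytes and progenitors, the sums were 1990, 825, 1351, 439 and 651 CPM, against 495 to 1155 CPM. Replicate 4 of the treated mutants was lowest in Fcgr2b and in both sums. Replicate 3 was highest in Fcgr2b and in the eosinophil sum. The part of other cells and of maturity in the Fcgr2b result was not tested.

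Fcgr3, an activating receptor of neutrophils, had 455, 456, 543, 651 and 632 CPM in untreated WT and 628, 595, 536, 607 and 532 CPM in untreated Bmal1 Mye-/-. It had 510, 405, 287, 630 and 625 CPM in WT + IMQ and 225, 512, 449, 514 and 308 CPM in Bmal1 Mye-/- + IMQ. Every treated mutant lay below every untreated mutant, and 2 of 5 treated WT mice lay below every untreated WT mouse. The means in the mutants were 579 ± 43.4 untreated and 402 ± 130 CPM under IMQ (SD, n = 5). The log2 fold change of -0.53 (SE 0.22, 95% interval -0.99 to -0.07) did not pass (edgeR adjusted p = 0.0843), and in WT mice it was -0.16 (SE 0.22, edgeR adjusted p = 0.728).

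Fcgr4, the activating receptor found on neutrophils and monocytes, had 97.0, 106, 108, 151 and 145 CPM in untreated WT and 118, 122, 123, 145 and 110 CPM in untreated Bmal1 Mye-/-. It had 118, 87.4, 76.5, 126 and 123 CPM in WT + IMQ and 34.0, 104, 78.9, 139 and 63.7 CPM in Bmal1 Mye-/- + IMQ. Of the treated mutants, 4 of 5 lay below every untreated mutant, and replicate 4 lay among them. The log2 fold change was -0.56 in the mutants (SE 0.26, edgeR adjusted p = 0.111), -0.80 without that replicate 4 (edgeR adjusted p = 0.0236), and -0.19 in WT mice (SE 0.25, edgeR adjusted p = 0.709).

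Fcer1g, the common signalling chain, had 542, 524, 550, 578 and 617 CPM in untreated WT and 513, 576, 594, 553 and 483 CPM in untreated Bmal1 Mye-/-. It had 649, 531, 356, 600 and 580 CPM in WT + IMQ and 309, 464, 515, 540 and 458 CPM in Bmal1 Mye-/- + IMQ. All groups overlapped, with replicate 1 of the treated mutants and replicate 3 of the treated WT mice lowest. The log2 fold change was -0.25 in the mutants (SE 0.15, 95% interval -0.56 to 0.06, edgeR adjusted p = 0.215) and -0.05 in WT mice (SE 0.15, 95% interval -0.36 to 0.26, edgeR adjusted p = 0.885).

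Mature neutrophil markers moved with Fcgr3, Fcgr4 and Fcer1g. The 8 genes, among them Retnlg, Mmp8 and Csf3r, the receptor for granulocyte colony-stimulating factor, summed to 25462 to 32834 CPM in the 10 untreated libraries. They summed to 5517, 22455, 15647, 23514 and 11337 CPM in replicates 1 to 5 of Bmal1 Mye-/- + IMQ and to 26686, 23781, 8450, 32130 and 31768 CPM in WT + IMQ. The library lowest in Fcgr3, Fcgr4 and Fcer1g, replicate 1 of Bmal1 Mye-/- + IMQ, was the lowest in these markers. It was also the highest in 8 markers of immature granulocytes and progenitors, at 1990 CPM against 216 to 1382 CPM elsewhere. Of the 8 mature neutrophil genes, 3 were called under IMQ in the mutants (37.5%, against 23.5% of all tested genes), all lower. In WT 0 were called, against 3.95% of all tested genes. The part of maturity in these results was not tested.

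**Figure D3:**
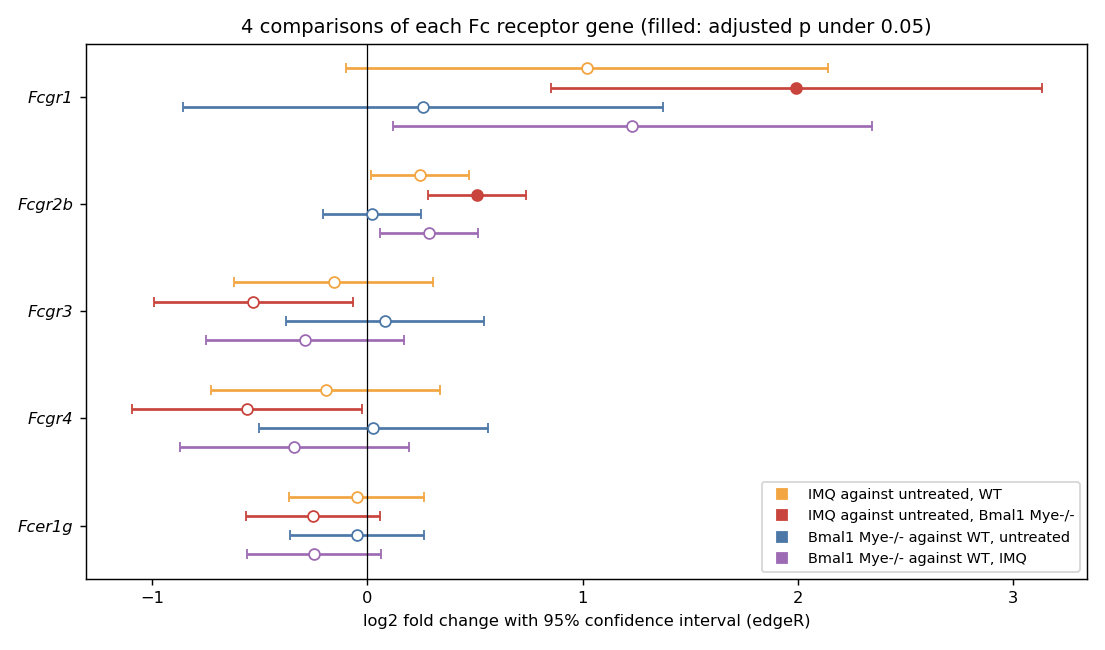
Log2 fold change of each of the 5 genes in 4 comparisons, with the 95% interval from edgeR, filled where the adjusted p was under 0.05. The 2 filled points are Fcgr1 (1.99) and Fcgr2b (0.51) under IMQ in Bmal1 Mye-/- mice, and the intervals of Fcer1g included 0 in all 4 comparisons.

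Without treatment, 0 of 5 genes passed between the genotypes. Bmal1 Mye-/- against WT gave log2 fold changes of 0.26 for Fcgr1 (95% interval -0.85 to 1.37), 0.02 for Fcgr2b (-0.21 to 0.25), 0.08 for Fcgr3 (-0.38 to 0.54), 0.03 for Fcgr4 (-0.50 to 0.56) and -0.05 for Fcer1g (-0.36 to 0.26). All 5 had an edgeR adjusted p of 1.00, and 0.207% of tested genes were called. The intervals leave room for a difference of more than 2-fold in Fcgr1, but bound that of Fcgr2b within 0.25 on the log2 scale in either direction. Ranges overlapped for all 5, against 1.52% of tested genes without overlap.

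With IMQ, Bmal1 Mye-/- had fitted values above WT for Fcgr1 and Fcgr2b and below WT for the other 3. The log2 fold changes were 1.23 for Fcgr1 (95% interval 0.12 to 2.34, edgeR adjusted p = 0.237) and 0.29 for Fcgr2b (0.06 to 0.51, edgeR adjusted p = 0.215). They were -0.29 for Fcgr3 (edgeR adjusted p = 0.403), -0.34 for Fcgr4 (edgeR adjusted p = 0.400) and -0.25 for Fcer1g (edgeR adjusted p = 0.311). Thus 0 of 5 passed, against 0.292% of tested genes, and ranges did not overlap for 0 of 5, against 1.07%.

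The interaction, which tests whether the IMQ effect differed between genotypes, was passed by 0 of 5 genes and by 0% of all genes tested with edgeR. Across all genes, 721 had an unadjusted p under 0.05, and DESeq2 also called 0. The differences of log2 fold changes, mutant minus WT, were 0.97 for Fcgr1 (95% interval -0.60 to 2.54), 0.27 for Fcgr2b (-0.06 to 0.59), -0.37 for Fcgr3 (-1.02 to 0.28), -0.37 for Fcgr4 (-1.12 to 0.39) and -0.20 for Fcer1g (-0.64 to 0.24). The calls in mutants and their absence in WT are therefore not shown to differ.

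The balance of activating to inhibitory receptor transcripts was described by ratios of counts within a library, which do not depend on library size. No test was made of them. Fcgr3 had 8.56 to 14.1 counts for each count of Fcgr2b in untreated WT and 10.2 to 13.5 in untreated Bmal1 Mye-/-, against 5.68 to 14.1 in WT + IMQ and 3.05 to 8.80 in Bmal1 Mye-/- + IMQ. Fcgr4 had 1.83 to 3.27, 2.35 to 3.22, 1.51 to 2.78 and 0.462 to 2.37 counts for each count of Fcgr2b in the same order of groups. The treated mutants thus had the lowest ratios of these 2 receptors, and for Fcgr3 their range did not reach that of the untreated mutants. Fcgr1 went the other way, with a mean log2 ratio to Fcgr2b of -3.41 in treated and -4.54 in untreated mutants, and -3.94 and -4.63 in WT, over overlapping ranges. The ratio of Fcer1g to the summed Fcgr1, Fcgr3 and Fcgr4 counts, signalling chain to its partners, stayed at 0.686 to 1.23 over all 20 libraries.

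**Figure D4:**
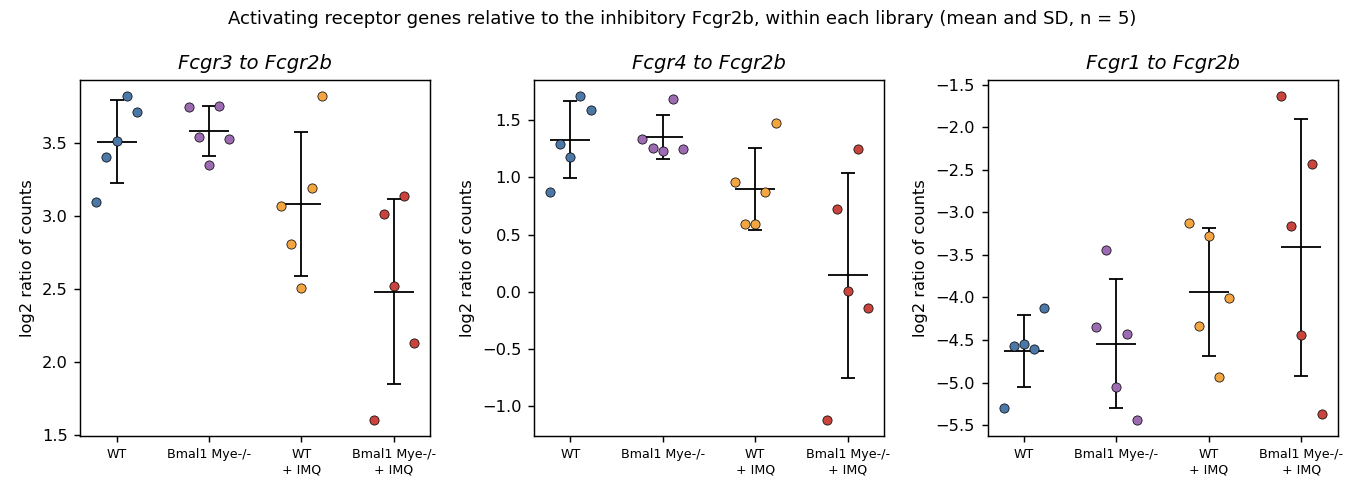
Log2 ratio of counts of Fcgr3, Fcgr4 and Fcgr1 to those of Fcgr2b in each library, by group, with the mean and SD (n = 5). The mean log2 ratio of Fcgr3 to Fcgr2b was 3.58 in untreated and 2.48 in treated Bmal1 Mye-/-, and 3.51 and 3.08 in WT.

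Across the 20 libraries, which share depth scaling and groups, the log2 CPM of Fcgr3 and Fcgr4 had a Pearson r of 0.93, of Fcgr3 and Fcer1g 0.85, and of Fcgr4 and Fcer1g 0.84. With group means removed these were 0.90, 0.83 and 0.79. Fcgr1 and Fcgr2b had an r of 0.49 that was -0.09 with group means removed. The genes most like Fcgr1 were Tmem106a (r = 0.95), Ms4a4c (0.94) and Ctss (0.93), the lysosomal protease cathepsin S, which is also among the monocyte markers. Those most like Fcgr2b were Stap2 (r = 0.88), Smim24 (0.88) and Rab13 (0.87). Those most like Fcgr3 were Cxcr2 (r = 0.98), the chemokine receptor of mature neutrophils and also among their markers, Tnfaip8l2 (0.98) and Rbm5 (0.98). Those most like Fcgr4 were Ccr1 (r = 0.96), a chemokine receptor, Gm16675 (0.95) and Nudt4 (0.95). Those most like Fcer1g were the tetraspanin gene Cd53 (r = 0.97), the GTPase gene Rac2 (0.97) and Lsp1 (0.97).

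In Bmal1 Mye-/- mice under IMQ, 5 of 35 ITAM signalling genes passed (14.3%, below the 23.5% of all tested genes), 1 higher and 4 lower, with a median log2 fold change of -0.22 against 0.02 over all tested genes. Syk, the kinase that binds the phosphorylated ITAM, fell by 0.68 on the log2 scale (SE 0.22, edgeR adjusted p = 0.0371), from 919 to 988 CPM in untreated to 390 to 806 CPM in treated mutants, without overlap. The kinase genes Src and Tec fell by 1.69 and 0.72, and Pik3r1, a regulatory subunit of phosphoinositide 3-kinase, fell by 0.40. Src was low, at 0.707 to 3.88 CPM in untreated and 0.237 to 1.04 CPM in treated mutants, with overlapping ranges. Lat2, a scaffold of ITAM signalling, rose by 1.35. In WT mice 0 of 35 passed, with a median of 0.03, although Src and Lat2 had log2 fold changes of -1.64 (edgeR adjusted p = 0.0607) and 1.12 (edgeR adjusted p = 0.0659) there.

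Of 12 tested genes for receptors and adaptors that signal through ITAM chains, 3 passed in the mutants (25%, against 23.5% of all tested genes), all lower, with a median of -0.57. The lectin receptor gene Clec4d, whose product pairs with Fcer1g, fell by 1.70, and Cd300lb and Sirpb1a fell by 1.13 and 1.53. In WT mice 0 of 12 passed, with a median of -0.18.

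Of 20 inhibitory signalling genes, 5 passed in the mutants (25%, against 23.5% of all tested genes), 2 higher and 3 lower, with a median of -0.23. Inpp5d, encoding SHIP1, fell by 0.53, from 301 to 342 CPM in untreated to 167 to 271 CPM in treated mutants, while Fcgr2b rose. Ptpn22, a phosphatase of Src family kinase signalling, fell by 0.93, and the inhibitory receptor gene Cd300a fell by 0.89. The ubiquitin ligase gene Cblb rose by 0.96 and Ptpn11, encoding the phosphatase SHP2, rose by 0.28. In WT mice Ptpn22 alone passed, at -0.82 (edgeR adjusted p = 0.0375). Between genotypes, Inppl1, encoding the related phosphatase SHIP2, was the 1 gene of 20 called. It was 3.90 higher on the log2 scale in untreated and 4.14 higher in treated mutants. Its levels were 19.1 to 49.0 CPM in mutants and 1.11 to 2.62 CPM in WT. For this gene, loss of Bmal1 and other genetic differences between the mutants and the purchased WT mice cannot be told apart.

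Other Fc receptor genes were in part below the filter on low counts. Of 14, 7 passed it, and 4 of these (57.1%, against 23.5% of all tested genes) were called in the mutants under IMQ, with Fcrl5 (3.42) and Ms4a2 (1.00) higher and Fcrl1 (-0.92) and Fcrla (-1.85) lower. Of these only Fcrl1 exceeded 10 CPM in any library. Ms4a2 encodes the beta chain of the IgE receptor of basophils and mast cells, and the 7 markers of those cells summed to 3.34 to 18.5 CPM in treated and 2.39 to 16.6 CPM in untreated mutants. Fcrla is typical of B cells and also fell by 2.44 in WT mice (edgeR adjusted p = 0.0452). Fcgrt, the neonatal Fc receptor, and Trim21, the cytosolic Fc receptor, had log2 fold changes of 0.49 and 0.22 in the mutants that did not pass.

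Of 8 tested complement receptor genes, 2 passed in the mutants (25%, against 23.5% of all tested genes), both lower, with a median of -0.42: Itgax, an integrin chain of complement receptor 4, fell by 2.02, and C5ar2, a receptor for C5a, fell by 1.31. In WT mice 0 of 8 passed, with a median of 0.04. Of 12 interferon-stimulated genes, 0 passed in edgeR in either genotype, with medians of 0.83 in mutants and 1.12 in WT and 1 gene, Ifit2, at an unadjusted p under 0.05 in each. Single libraries stood apart in the summed level: apart from replicate 4, the treated mutants summed to 354 to 931 CPM, below all untreated mutants (964 to 1436 CPM), and apart from replicate 1, treated WT mice summed to 928 to 1297 CPM, among the untreated (824 to 1323 CPM). No gene of the ITAM signalling, ITAM adaptor, complement receptor, interferon-stimulated or other Fc receptor lists was called between genotypes, which leaves Inppl1 as the gene called there.

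**Figure D5:**
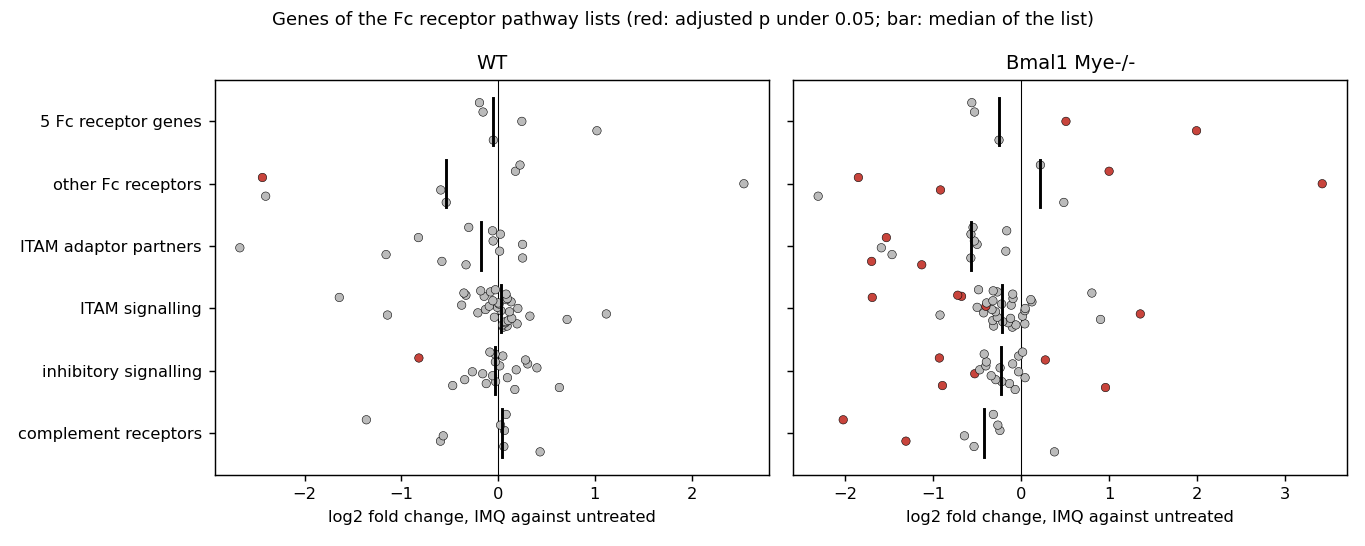
Log2 fold change under IMQ of each tested gene of the pathway lists in WT and Bmal1 Mye-/- mice, red where the edgeR adjusted p was under 0.05, with a bar at the median of each list. In Bmal1 Mye-/- mice 5 of 35 ITAM signalling, 3 of 12 ITAM adaptor, 5 of 20 inhibitory, 2 of 8 complement receptor and 4 of 7 other Fc receptor genes are red, against 0, 0, 1, 0 and 1 in WT, where 23.5% of all tested genes were called in the mutants and 3.95% in WT.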

How the data were processed

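Each library's deposited table holds raw counts of reads per gene, made by the authors without normalization, together with 5 summary lines. The submitters' processing notes name bcl2fastq, STAR 2.7.8a, HTSeq 2.0.1 and build mm10, whereas the study's methods name another aligner, run on Read 1 of 50 bases. The annotation and strand setting are not given in the sources used here. Of the reads a table accounts for, 37.4% to 41.9% were on genes, 51.9% to 57.8% on no feature, 0.335% to 0.431% ambiguous and 4.37% to 6.50% not uniquely aligned. The summary lines were left out of library sizes.

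Groups and replicate numbers came from the sample labels. Counts were fitted in R 4.3.3 with edgeR 4.0.16: genes were kept by edgeR's own filter on low counts, scaled with TMM factors (0.854 to 1.38) and tested by the quasi-likelihood F test in 1 model of 4 groups, with Benjamini-Hochberg adjustment over all 14030 tested genes and a threshold of 0.05. Standard errors came from the F statistic. Log2 CPM for correlations used a prior count of 2. The 5 members and all gene lists were chosen with earlier results of these data known. Named genes are the members, up to 6 called genes per list and comparison (where none passed, up to 2 with the smallest p), the 3 genes most correlated with each member, and Arntl and Lyz2 as checks of the labels. Ccr2, Ly6c2, Csf1r, Csf3r, Retnlg, Mmp8, Pax5, Ncr1, Klrb1c, Fcgrt and Trim21 were named from the lists after their values were seen.

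Chi-square statistics divided by their degrees of freedom were 18.2 to 787 over the 40 replicate pairs, so libraries of a group differed beyond counting error. The p-values weigh differences between groups against the spread between these mice. Libraries with the same replicate number deviated together between treated and untreated Bmal1 Mye-/- (5 correlations, 0.128 to 0.426, all above a cut-off of 0.1). This was taken as pairing, but these were different mice that the labels do not pair. Libraries of different replicate numbers were not compared. The main fit did not use pairing, and the alternative with a replicate block did. In WT the correlations were 0.073 to 0.384, with 4 of 5 above the cut-off. Between genotypes they had both signs, at -0.441 to 0.206 untreated and -0.497 to 0.343 with IMQ. On simulated counts of the WT comparison (13807 genes), the fit recovered 59 of 100 genes changed 2-fold and 83 of 100 changed 4-fold, with 6 false calls. Alternatives were RLE factors, DESeq2 1.42.0, limma 3.58.1 on log2(CPM + 0.1), no filter, a minimum of 10 counts, only the groups compared, a replicate block and each library left out. Gene models and transcripts were GENCODE for mm10, and promoter windows were from RefSeq (GRCm38.p6), with all 5 members matched by symbol in each.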

Additional observations from a re-analysis of the deposited data

Results flagged for a closer look

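Among 36 groups of 5 values checked for a library far from the others (5 genes and 4 ratios in 4 groups), 1 stood apart: the log2 ratio of Fcgr4 to Fcgr2b in replicate 4 of untreated Bmal1 Mye-/- was 1.69, and the nearest of the other 4 was 1.33. This gap was 0.771 of the group's range, above Dixon's critical value at the 95% level for 5 values. At that level chance marks about 1 in 20 groups.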

How the results depend on the processing

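The number of members called kept its value under RLE factors, DESeq2, limma, no filter, a minimum of 10 counts, only the groups compared and a replicate block, at 2 for IMQ in Bmal1 Mye-/- and 0 in the other comparisons. With each library left out, the 2 ranged from 1 (without replicate 1 of Bmal1 Mye-/- + IMQ, where Fcgr1 was lost) to 3 (without its replicate 4, where Fcgr4 passed at -0.80). The fit with a replicate block changed no call of a member, with Fcgr1 at 1.80 and Fcgr2b at 0.51 in the mutants. Reversed signs, none of them called, came only from leaving out a library: Fcer1g under IMQ in WT ranged from -0.12 to 0.065, and for untreated genotypes Fcgr1 ranged from -0.16 to 0.42, Fcgr2b from -0.027 to 0.047 and Fcgr4 from -0.061 to 0.11. The background moved more. Of all genes, 554 were called for IMQ in WT, against 190 with the block, 186 with only the groups compared, 326 without a filter, 1494 by DESeq2 and 48 to 1989 with a library left out (1989 without replicate 5 of WT + IMQ). In Bmal1 Mye-/- 3292 were called, 3114 with the block and 1612 to 4037 with a library left out. Between genotypes 29 were called untreated (59 with only the groups compared) and 41 with IMQ (310 by DESeq2, 16 with only the groups compared, 20 to 3129 with a library left out, the last without replicate 3 of WT + IMQ). The cause was not tested. At these depths Fcgr1 had 47 to 1830 counts and the other members at least 1564, so the spread between mice and not counting limits the comparisons.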
